A study of Mus musculus with 2 samples.

Results

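The 10 glycolytic enzyme genes Hk2, Gpi1, Pfkl, Pfkp, Aldoa, Tpi1, Gapdh, Pgk1, Eno1 and Pkm were followed in differentiating C3H10 cells with and without knockdown of the long non-coding RNA MALAT1. They were chosen by name as enzymes of the pathway from glucose to pyruvate, and their rows were read from a count table of 46095 genes. All 10 passed the filter on low values, a sum of at least 10 counts in the pair of libraries, as did 17356 genes in all. C3H10 is a mouse mesenchymal line that can form adipocytes, and the labels describe the cells as fibroblast precursors able to undergo adipogenesis, of the strain C57BL/6. The strain is given as labelled and was not checked, and the name of the line refers to C3H mice. One library came from cells that received an antisense oligonucleotide (ASO) against MALAT1, and the other from cells that received the negative control (NC) ASO. Both cultures received 100 nM of their ASO with RNAiMAX, were grown to confluence and were then induced with IBMX, dexamethasone, troglitazone and insulin, and RNA was taken at day 6. The sources used here do not say which anti-MALAT1 ASO this was.

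With 1 library per group, no difference below has a replicate check. The intervals in brackets are 95% Clopper-Pearson intervals that cover counting error only, and any test compares these libraries and not the conditions. The totals were 58147539 counts for NC and 61653549 for the knockdown, and the 10 enzymes took 0.72% and 0.581% of them. The targeted RNA, Malat1, had 170402 counts in the NC library and 45396 in the knockdown library, which left 24.7% of the NC level after scaling. Levels are given as CPM, counts per 1000000 counts of the library, after scaling the library sizes by the TMM method, and a ratio is the knockdown level over the NC level.

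Glycolysis splits glucose into a pair of pyruvate molecules and yields ATP and NADH without oxygen. Its early steps spend ATP to trap and prime the sugar, aldolase cuts the primed hexose, and the later steps recover ATP from the triose phosphates. In adipocytes it also provides glycerol 3-phosphate, the backbone onto which fatty acids are joined to make triglyceride, and pyruvate, which enters mitochondria and feeds fatty acid synthesis.

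The stretch of Gapdh in which it differs from a near-identical copy with far more counts is shown first, because it bears on how the Gapdh values are read. Gapdh (GRCm38, GENCODE M21, chr6:125161715-125166467, minus strand) has a processed pseudogene, Gm13394 (chr2:28933610-28934609, minus strand), that aligns with its coding sequence of 1002 bases over 1000 columns, of which 999 are identical. The only substitution between them is A346C, with the base of Gapdh first and positions counted from 1 at the A of the start codon. Bases 316 to 376 are printed from the GENCODE M21 transcripts, with the differing base in capitals.
Gapdh: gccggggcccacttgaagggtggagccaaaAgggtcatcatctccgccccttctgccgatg
Gm13394: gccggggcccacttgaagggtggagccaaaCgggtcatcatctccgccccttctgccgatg

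The sequences just upstream of 4 of the genes are shown because several glycolytic genes are textbook targets of the hypoxia-inducible factor. The core of its response element can be ACGTG or GCGTG. Only ACGTG was searched for, so a window called without a match can still hold GCGTG, as that of Pfkl does. Of the windows that lie outside every exon of their gene, those of the 4 genes with the lowest ratios are printed. That of Pfkl, the third lowest of the 10, overlaps an exon by 53 bases and has no match, and 2 further windows of Aldoa overlap exons, 1 with a match and 1 without. Each run is the 250 bases before the RefSeq start in GRCm38.p6, 5′ to 3′ on the strand of the gene, and capitals mark ACGTG or its reverse complement CACGT. The windows are chr6:82774455-82774704 (minus) for Hk2, chr7:126799255-126799504 (minus) for Aldoa, chrX:106186850-106187099 (plus) for Pgk1 and chr7:34230337-34230586 (minus) for Gpi1, which has no match.
Hk2: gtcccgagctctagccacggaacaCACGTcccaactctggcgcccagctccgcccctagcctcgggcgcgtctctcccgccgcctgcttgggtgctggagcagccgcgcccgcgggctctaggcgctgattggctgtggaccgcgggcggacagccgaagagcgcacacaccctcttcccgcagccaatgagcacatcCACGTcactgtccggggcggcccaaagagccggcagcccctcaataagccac
Aldoa: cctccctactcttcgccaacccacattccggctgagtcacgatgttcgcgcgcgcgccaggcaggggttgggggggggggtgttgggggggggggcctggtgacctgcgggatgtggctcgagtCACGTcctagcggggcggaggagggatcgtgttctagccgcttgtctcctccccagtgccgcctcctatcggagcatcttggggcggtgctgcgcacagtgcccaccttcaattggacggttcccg
Pgk1: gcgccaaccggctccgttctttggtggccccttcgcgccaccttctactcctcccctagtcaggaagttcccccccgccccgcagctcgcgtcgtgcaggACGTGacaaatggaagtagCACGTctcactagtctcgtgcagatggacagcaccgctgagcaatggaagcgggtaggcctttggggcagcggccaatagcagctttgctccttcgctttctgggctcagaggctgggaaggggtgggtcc
Gpi1: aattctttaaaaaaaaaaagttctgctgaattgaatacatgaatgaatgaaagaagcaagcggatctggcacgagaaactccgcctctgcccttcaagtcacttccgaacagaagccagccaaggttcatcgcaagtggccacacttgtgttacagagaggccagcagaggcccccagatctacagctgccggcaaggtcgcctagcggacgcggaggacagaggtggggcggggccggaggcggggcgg

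The 10 genes have 15 such windows in RefSeq, since some have several starts, and 5 windows, of Hk2, Aldoa, Pgk1 and Pkm, held the motif on either strand. That is 4 of 10 genes, against 18.5% of the 27025 genes with a window of the same length, and 16.6% of all 32851 windows. These shares cover every gene with a window, whether or not it was tested here. They are not matched to the 10 genes for level, base content or number of windows per gene, so an excess cannot be read from them. The Aldoa windows with a match overlap each other and hold the same CACGT, and the Pkm window with a match overlaps an exon by 140 bases. The E-box CACGTG, which contains ACGTG, was in no window of the 10 genes and in at least 1 window of 6.86% of all genes. A match of these letters is a description and not a binding site. The genes with a match had log2 ratios of −0.66 (Aldoa), −0.54 (Hk2), −0.40 (Pgk1) and −0.10 (Pkm). Those without had −0.40 (Pfkl), −0.39 (Gpi1), −0.26 (Gapdh), −0.16 (Tpi1), −0.12 (Pfkp) and −0.06 (Eno1). A link between the motif and the ratios was not tested.

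All 10 enzymes had a lower level in the knockdown library than in the NC library, at between 63.2% (Aldoa) and 95.8% (Eno1) of the NC level. The median log2 ratio of the 10 was −0.32, with a range of −0.66 to −0.06, and the interval of every gene lay below 0. Over all tested genes the median was −0.0029, with 8744 genes below 0 and 8612 above, and over the 8251 tested genes with a mean of at least 1000 counts it was 0.01. Aldoa alone was past 1.5-fold, the size used here to call a gene lower or higher. That fold was passed downwards by 11.9% of all tested genes and by 2.84% of the genes with a mean of at least 1000 counts. Upwards it was passed by 8.29% and 1.43%. The enzymes had 1 of 10 lower, near the 11.9%, and 1 of the 9 at that depth, to be set beside the 2.84%. A count of 1 gene is too small to be read against either share. Of the 9 enzymes with a mean of at least 1000 counts, 5, Hk2, Gpi1, Pfkl, Aldoa and Pgk1, were at 80% of the NC level or less, where 8.27% of genes of that depth were as low and 5.84% were higher by the same fold. By the two-sided exact binomial test with Benjamini-Hochberg adjustment over all tested genes, 10 of 10 had an adjusted p under 0.05, as did 48.8% of all tested genes. This test passes more genes at high counts, and 5401 of the 8251 genes with a mean of at least 1000 counts passed it. Whether less RNA per cell or fewer cells of a type lay behind a lower level cannot be told apart in bulk RNA.

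**Figure D1:**
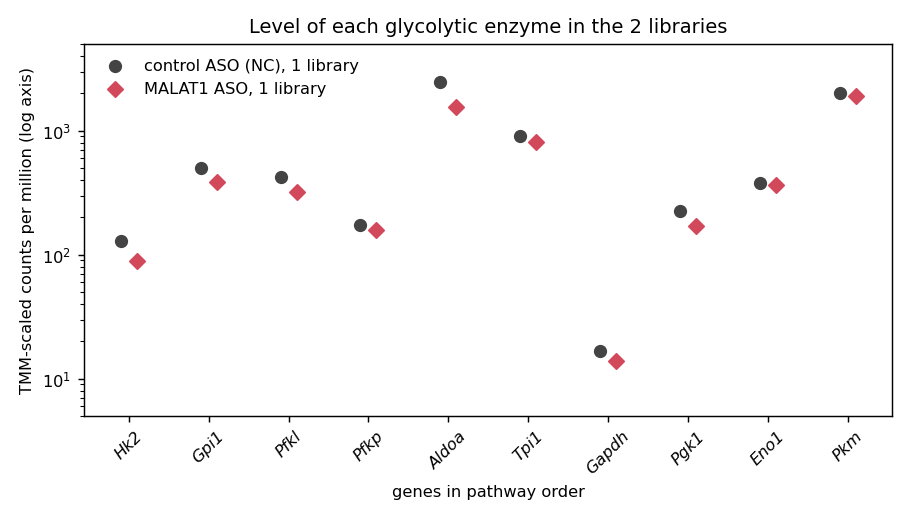
TMM-scaled CPM (log axis) of the 10 enzymes in pathway order, with 1 point per library, circles for the NC ASO and diamonds for the MALAT1 ASO. Every diamond sits below its circle, with the widest gap at Aldoa (2470 and 1561 CPM), and Gapdh lies far below the others at 16.7 and 14.0 CPM.

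Hk2, the insulin-responsive hexokinase that phosphorylates glucose on entry, had 7466 counts in the NC library and 5521 in the knockdown library, or 129 and 88.9 CPM. Its log2 ratio was −0.54 (−0.59 to −0.49), the second lowest of the 10, and its interval is the only one that includes a 1.5-fold decrease. Gpi1, which turns glucose 6-phosphate into fructose 6-phosphate, had 29067 and 23954 counts, with a log2 ratio of −0.39 (−0.41 to −0.36). In the knockdown library it was at 76.5% of the NC level, against 68.7% for Hk2.

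Phosphofructokinase makes the committed step of the pathway, and its liver-type and platelet-type subunits are both among the 10. Pfkl, the liver-type subunit, had 24357 counts in the NC library and 19806 in the knockdown library, with a log2 ratio of −0.40 (−0.43 to −0.38). Pfkp, the platelet-type subunit, had 10004 and 9890 counts, with a log2 ratio of −0.12 (−0.16 to −0.08). The liver type was thus lower by more than the platelet type, and within a library, where scaling plays no part, the counts of Pfkl over those of Pfkp went from 2.44 to 2.00, a log2 change of −0.28 (−0.33 to −0.23).

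Aldoa, the aldolase that cuts fructose 1,6-bisphosphate into triose phosphates, had 142533 counts in the NC library and 97000 in the knockdown library. It was the gene of the 10 with the most counts in the NC library and the one with the lowest ratio, −0.66 on the log2 scale (−0.67 to −0.65), or 63.2% of the NC level. Tpi1, which interconverts the pair of triose phosphates, had 52115 and 50334 counts, with a log2 ratio of −0.16 (−0.17 to −0.14). Only 2.13% of the genes with a mean of at least 1000 counts had a ratio below that of Aldoa, whereas 18.9% lay below that of Tpi1.

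Among the later steps, Pgk1, the first enzyme to return ATP, had 12991 counts in the NC library and 10627 in the knockdown library. Its log2 ratio of −0.40 (−0.43 to −0.36) was close to those of Gpi1 and Pfkl. Eno1, the enolase that forms phosphoenolpyruvate, had 21932 and 22622 counts, and Pkm, the pyruvate kinase of most tissues other than liver, had 117218 and 117503. These raw counts were slightly higher in the larger knockdown library, and after scaling the log2 ratios were −0.06 (−0.09 to −0.04) for Eno1 and −0.10 (−0.11 to −0.09) for Pkm. They were the ratios nearest to 1 among the 10. The counts of Aldoa over those of Pkm, the most counted pair, went from 1.22 in the NC library to 0.826 in the knockdown library, a log2 change of −0.56 (−0.58 to −0.54).

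**Figure D2:**
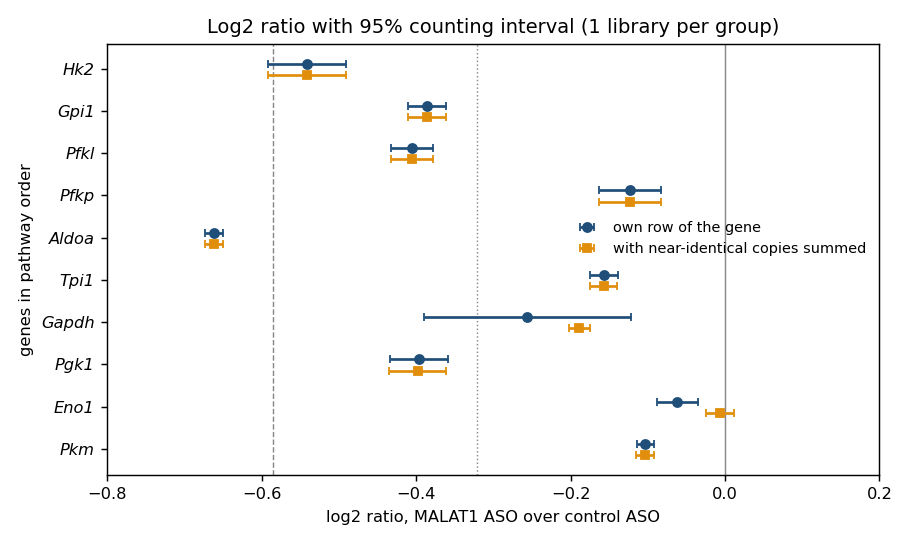
Log2 ratio of the knockdown library over the NC library for each enzyme, with 95% counting intervals, from the row of the gene alone (circles) and with the counts of near-identical copies added (squares). The solid line is at 0, the dashed line at a 1.5-fold decrease and the dotted line at 80% of the NC level, −0.32. Aldoa lies left of the dashed line, and the square of Eno1 lies at 0.

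Gapdh, which oxidises glyceraldehyde 3-phosphate and makes NADH, had only 965 counts in the NC library and 870 in the knockdown library, fewer than any of the other enzymes. Its log2 ratio was −0.26 (−0.39 to −0.12), the least precise of the 10, with an adjusted p of 0.000513 by the exact binomial test. The copy Gm13394 held 84730 and 79734 counts, with a log2 ratio of −0.19 (−0.21 to −0.18). The gene in whose span it lies, Cfap77, had 14 and 19 counts. The genes next to Gapdh, Iffo1 and Ncapd2, had 1250 and 1342 counts and 3539 and 5346 counts. The counts of Gapdh over those of Gm13394 were 0.0114 in the NC library and 0.0109 in the knockdown library, a log2 change of −0.06 (−0.19 to 0.07), an interval that includes 0. Of the 50-base windows of the longest coding transcript of Gapdh, 82.5% occur in another gene. Transcripts of 75 genes in the table matched Gapdh at 95% identity or more over at least 200 bases. Beside Gm13394, the other 74 held 3110 and 3274 counts together, most of them on Gm7336 with 1851 and 1974, and 10 of the copies were at 0 in both libraries. With all copies added, Gapdh had 88805 and 83878 counts, of which its own row held 1.09% and 1.04%, and the log2 ratio was −0.19 (−0.20 to −0.18). How reads that match several places were counted is not given in the sources used here, and the part this plays was not tested.

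Eno1 also has a near-identical gene with as many counts. Its copy Eno1b, a gene with 99.5% identity over 1736 bases, had 21876 counts in the NC library and 24428 in the knockdown library, close to the 21932 and 22622 of Eno1 itself. Their log2 ratios had opposite signs, −0.06 for Eno1 and 0.05 (0.03 to 0.08) for Eno1b, and 72.2% of the 50-base windows of Eno1 occur in another gene, so the split between them is uncertain. Summed with its 3 copies, Eno1 had 46453 and 49783 counts and a log2 ratio of −0.01 (−0.02 to 0.01). It was the 1 gene of the 10 whose interval included 0 with copies added. For Pgk1, 68.0% of the windows occur in another gene, and for Pkm 30.5%. Their own rows held between 98.6% and 99.1% of the counts summed with copies, and their log2 ratios stayed at −0.40 and −0.10. The share was 19.6% for Gpi1, 13.5% for Aldoa, 7.51% for Tpi1 and 0.0543% for Pfkl, and Aldoa had 0 copies by the rule used here. The windows of Hk2 and Pfkp occur in no other gene.

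Levels were compared between enzymes per kilobase of the longest coding transcript. On that scale Aldoa was the highest of the 10 in the NC library at 1595 CPM per kb, followed by Pkm at 835, Tpi1 at 562, Eno1 at 188, Gpi1 at 175, Pgk1 at 123, Pfkl at 113, Pfkp at 41.8, Hk2 at 23.5 and Gapdh at 11.8. In the knockdown library the order was the same, from 1008 CPM per kb for Aldoa to 9.86 for Gapdh. With its copies added, Gapdh stood at 1084 CPM per kb in the NC library and 951 in the knockdown library, between Aldoa and Pkm in both.

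**Figure D3:**
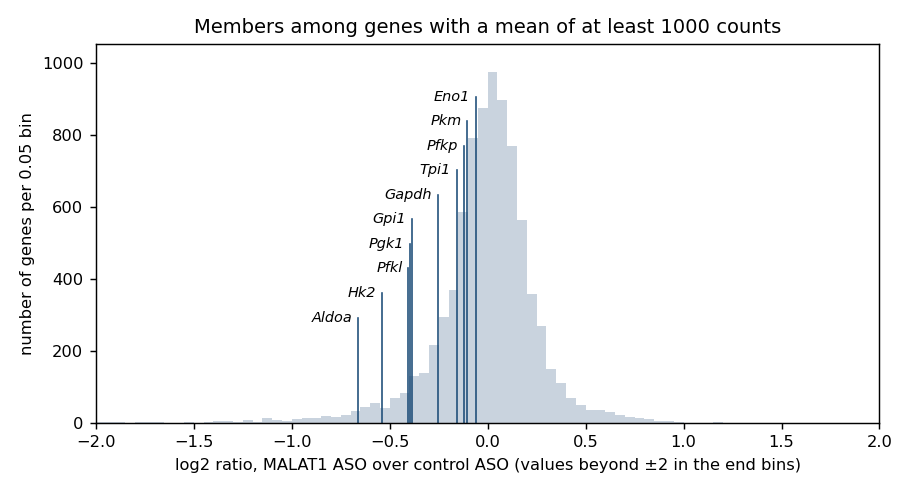
Histogram of the log2 ratios of the genes with a mean of at least 1000 counts (number of genes per bin of 0.05), with a vertical line at the ratio of each enzyme; line heights only separate the names, and the mean of Gapdh is below 1000 counts. All 10 lines fall left of 0, from Aldoa at −0.66 to Eno1 at −0.06.

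Several steps have isozymes besides the 10 enzymes. Hk1, the hexokinase of most tissues, had 22972 counts in the NC library and 25788 in the knockdown library, with a log2 ratio of 0.06 (0.03 to 0.09), so Hk2 over Hk1 went from 0.325 to 0.214 within a library, a log2 change of −0.60 (−0.66 to −0.55). Per kilobase, Hk2 made up 20.1% of the summed level of Hk1, Hk2, Hk3 and Hkdc1 in the NC library and 14.2% in the knockdown library, and that sum had a log2 ratio of −0.04. For phosphofructokinase, the muscle-type subunit Pfkm had 6791 and 7128 counts and a log2 ratio of −0.04 (−0.08 to 0.01), and Pfkl went from 57.8% to 52.2% of the step. The phosphofructokinase step had a log2 ratio of −0.26 and the aldolase step, nearly all Aldoa, one of −0.66. Among the enolases, Eno2, the neuronal form, had 3835 and 3259 counts and a log2 ratio of −0.34 (−0.41 to −0.27), and Eno3, the muscle form, had 532 and 53 counts and a log2 ratio of −3.42 (−3.87 to −3.02). Eno3 was only 1.38% of the enolase level in the NC library, and the step had a log2 ratio of −0.04. The genes next to Eno3, Pfn1 and Spag7, had 181 and 208 counts and 15 and 32 counts. Whether the way reads were counted there bears on Eno3 was not tested. Pgam1, the mutase between Pgk1 and Eno1, had 9174 and 8144 counts and a log2 ratio of −0.28 (−0.32 to −0.24). In all, 10 of 17 isozymes listed outside the 10 enzymes were tested, of which 1, Eno3, was lower past 1.5-fold, and 1, Aldoc with 4 and 15 counts, was higher. Their median log2 ratio was −0.05.

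**Figure D4:**
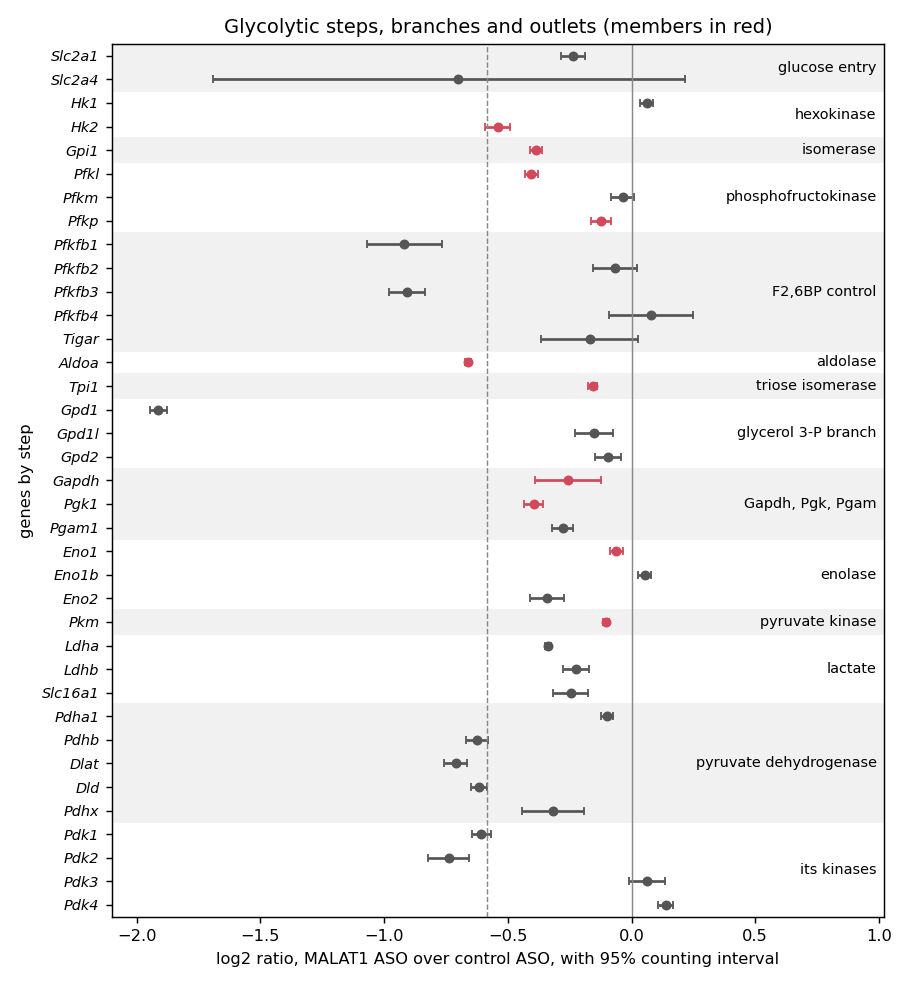
Log2 ratio of the knockdown library over the NC library with 95% counting intervals for the 10 enzymes (red) and genes of the same steps, branches and outlets (grey), with lines at 0 (solid) and at a 1.5-fold decrease (dashed); F2,6BP is fructose 2,6-bisphosphate, and Eno3 at −3.42 is not drawn. Gpd1 at −1.91 lies far left of the enzymes, whereas Hk1 and Eno1b lie just right of 0.

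The main transporter for glucose entry stayed within 1.5-fold. Slc2a1, the basal glucose transporter GLUT1, had 6864 and 6272 counts and a log2 ratio of −0.24 (−0.29 to −0.19), while Slc2a4, the insulin-responsive GLUT4, had only 26 and 17, with a log2 ratio of −0.70 (−1.69 to 0.22), an interval that includes 0. Slc2a4 was the 1 of 7 tested transporters, of 13 listed, whose ratio was past 1.5-fold, and their median was −0.10. Fructose 2,6-bisphosphate is the activator of phosphofructokinase, and it was listed together with the fructose bisphosphatases. Of the 7 genes in that list, 5 were tested, of which 2 were lower and 0 higher, and the bisphosphatase genes Fbp1 (0 and 6 counts) and Fbp2 (0 and 1 counts) were not tested. Pfkfb3, which makes it, had 4030 and 2313 counts and a log2 ratio of −0.91 (−0.98 to −0.83), and Pfkfb1 had 992 and 565 and a log2 ratio of −0.92 (−1.07 to −0.77). Both lay below all 10 enzymes, including the phosphofructokinase subunits.

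The branch to glycerol 3-phosphate leaves at the triose phosphates, next to Aldoa and Tpi1. Gpd1, the cytosolic dehydrogenase that opens it, had 30396 counts in the NC library and 8692 in the knockdown library, a log2 ratio of −1.91 (−1.95 to −1.88). It was the 1 lower gene of 4 in that list, and the other 3 had log2 ratios between −0.15 and 0.16. In the pentose phosphate pathway, which leaves at glucose 6-phosphate, 2 of 10 genes were lower and 0 higher, with a median of −0.18. One of them was Rbks, a ribokinase, with 145 and 85 counts and a log2 ratio of −0.87 (−1.28 to −0.48), and the other, Shpk, had 14 and 2 counts.

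At the pyruvate end, 5 of 20 tested genes of lactate and pyruvate handling, of 22 listed, were lower past 1.5-fold and 0 were higher, with a median log2 ratio of −0.32, equal at this rounding to that of the 10 enzymes. Over all tested genes 11.9% were lower by that fold. The 4 lowest were Pdk2, a kinase that inactivates pyruvate dehydrogenase (2944 and 1898 counts, −0.74), and the pyruvate dehydrogenase subunits Dlat (8889 and 5846 counts, −0.71), Pdhb (9820 and 6862 counts, −0.62) and Dld (18421 and 12920 counts, −0.62). Not all parts of the complex were so low. The subunit Pdha1 had 25355 and 25497 counts (−0.10), and the kinase Pdk4 had 16596 and 19662 (0.14). By sign, 17 of the list lay below 0 and 3 above. Ldha, the lactate dehydrogenase subunit that follows Pkm when pyruvate is reduced, had 96163 and 81911 counts and a log2 ratio of −0.34 (−0.35 to −0.32). That was lower than the ratio of Pkm and higher than that of Aldoa. Of 5 tested gluconeogenic genes, 2 were lower and 0 higher, with a median of −0.44. They were Pcx, the pyruvate carboxylase that also serves lipid synthesis in adipocytes, with 69592 and 44097 counts and a log2 ratio of −0.76 (−0.78 to −0.75), and Pck1, with 93 and 12 counts and a log2 ratio of −3.01 (−4.06 to −2.19).

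Factors that act on glycolytic genes mostly stayed within 1.5-fold. Hif1a, the oxygen-regulated subunit of the hypoxia-inducible factor, had 10844 counts in the NC library and 12860 in the knockdown library, with a log2 ratio of 0.14 (0.10 to 0.18). Egln1, a prolyl hydroxylase that marks that subunit for degradation, had 6800 and 5265 counts and a log2 ratio of −0.48 (−0.53 to −0.42), and Myc, a factor that binds E-boxes, had 3033 and 2567 counts and a log2 ratio of −0.35 (−0.42 to −0.27). Of 13 tested regulators, of 15 listed, 10 had log2 ratios below 0 and 3, Hif1a among them, above 0. By fold, 1 was lower, Mlxipl with 11 and 1 counts, and 0 were higher, with a median of −0.05. Among textbook targets of the hypoxia response outside glycolysis, 6 of 14 tested genes, of 15 listed, were lower and 0 higher, with a median log2 ratio of −0.42. The share lower was 11.9% over all tested genes and 2.84% over those with a mean of at least 1000 counts. By sign, 13 had log2 ratios below 0, among them P4ha2 at −0.11, and 1, Adm, lay above 0 at 0.20 (2965 and 3670 counts). The 4 lowest were Ero1l, an oxidase of the endoplasmic reticulum (16652 and 6935 counts, −1.37), Ankrd37 (837 and 416 counts, −1.11), Car9, a carbonic anhydrase (155 and 78 counts, −1.09), and Bnip3, a mitophagy receptor (24846 and 13484 counts, −0.99). These 4, picked as the lowest of the list, lay below Aldoa.

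Markers of cell state moved between the libraries beside the enzymes. All 14 tested adipocyte markers, of 15 listed, had log2 ratios below 0, and 12 were lower past 1.5-fold. Their median was −1.23, and their summed level was 7645 CPM in the NC library and 3463 in the knockdown library, while the adipokine gene Lep had 1 and 0 counts. The 10 enzymes together went from 7255 to 5764 CPM, a log2 ratio of −0.33. Of 11 tested fibroblast and preadipocyte markers, of 12 listed, 10 had log2 ratios above 0, with a median of 0.23 and a summed level of 20080 and 22130 CPM. All 10 markers of dividing cells had log2 ratios above 0, and 7 were higher past 1.5-fold, with a summed level of 815 and 1225 CPM. Muscle markers (2 of 9 tested, 1 lower and 0 higher) summed to 8.27 and 5.81 CPM, nearly all from Des. Macrophage markers (3 of 6 tested) summed to 3.15 and 2.53 CPM, with Cd68 lower at 172 and 119 counts, and Csf1r (3 and 13 counts) and Lyz2 (7 and 25 counts) higher. Cartilage markers (3 of 5 tested, 0 lower and 1 higher) summed to 126 and 178 CPM, mostly from Sox9. Bone markers (4 of 6 tested, 0 lower and 1 higher) summed to 1280 and 1722 CPM, of which Spp1 alone made 1246 and 1682, and Runx2 had 33.1 and 37.9 CPM. The muscle markers Myod1, Myog and Myf5, the cartilage marker Acan and the macrophage markers Ptprc, Adgre1 and Itgam were at 0 counts in both libraries. Of 12 reference genes, 0 were past 1.5-fold, and their median was 0.03. What part these differences in cell state had in the lower levels of the enzymes was not tested.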

How the data were processed

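The authors removed rRNA from total RNA, prepared libraries with a kit that keeps strand, and deposited whole-number read counts per gene with no normalization. The submitters' processing notes name HISAT2 and GRCm38. The counting tool, the annotation and the treatment of strand and of reads matching several places are not given in the sources used here.

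The libraries held 58147539 (NC) and 61653549 (knockdown) counts. Genes with at least 10 summed counts were scaled by TMM (edgeR 4.0.16 in R 4.3.3). Log2 ratios used a prior count of 0.5, and intervals and two-sided exact binomial tests with Benjamini-Hochberg adjustment were computed with scipy 1.17.1 (Python 3.11.15). These had first been tested on simulated counts that held counting error only, so the simulation could not show how they fare with a spread between cultures. A gene was called past 1.5-fold in either direction, without a replicate test. Copies were other genes whose GENCODE M21 transcripts aligned in BLAST+ 2.17.0 with 95% identity or more across 200 bases or more, leaving out overlapping genes. Promoter windows came from RefSeq.

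The text names the 10 enzymes, Malat1, isozymes of the same steps with at least 100 summed counts, Slc2a1, Slc2a4, Pgam1, Ldha, Gpd1, and up to 4 genes per list and direction past 1.5-fold with at least 100 counts. Genes with fewer counts, Hif1a, Egln1, Myc, Adm, P4ha2, Pdha1, Pdk4, Lep, the other single markers and the genes near or matching Gapdh, Eno1 and Eno3 were named after their values were seen. A gene of the isozyme list is not reported here. The members and lists were chosen with earlier results of these data known. The alternatives were library totals, DESeq2 1.42.0 size factors, upper-quartile factors, other filters and prior counts, a lower and a 2-fold threshold, preset dispersions, counts divided by 4 and omission of Gapdh. Adding the counts of copies was chosen after seeing the data.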

Additional observations from a re-analysis of the deposited data

How the results depend on the processing

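All 10 enzymes kept their direction under the scalings, filters and prior counts tried, and none of 70 recomputed log2 ratios reversed, while 4 moved beyond their counting interval. The filters could not change a log2 ratio, since the scaling stayed the same, and the prior count hardly could at these counts. Only the other scalings and the adding of copies could do so. The median of the enzymes ranged from −0.39 to −0.29. It was −0.39 without Gapdh and −0.29 with the counts of near-identical copies added, a choice made after seeing the data. The median over all tested genes lay between −0.0029 and 0.0192 under the 4 scalings. The number past the fold was 1 at 1.5-fold, 5 at 80% of the NC level and 0 at 2-fold. The binomial test knows no spread between cultures. When edgeR's exact test was given a biological coefficient of variation of 0.1, 1 enzyme had an adjusted p under 0.05, Aldoa at 0.0266, as did 6.22% of all tested genes, and 3 had an unadjusted p under 0.05. With a coefficient of 0.2 in that test the count was 0, beside 0.674% of all tested genes, with 0 unadjusted and a lowest p of 0.108. With 0.4 it was 0, beside 0.00576% of all tested genes, with 0 unadjusted and a lowest p of 0.429. By the binomial test it was 10, beside 48.8% of all tested genes and 5401 of the 8251 with a mean of at least 1000 counts. With counts divided by 4, 8 passed, all but Gapdh and Eno1, as did 20.5% of all tested genes. Leaving out a replicate was not possible with 1 library per group. No paired analysis was possible because each group has 1 library.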
